A study of Rattus norvegicus with 3 samples.

Results

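The nuclear-coded respiratory chain genes were followed across the cell labels of the rat thymus. They were chosen by name alone, as the features called Nduf with a, b, c, s or v and a number, Sdh with a to d, Uqcr, Cox 4 to 8 with a letter, or Atp5. This rule found 84 of 34034 features: 37 of complex I, 4 of complex II, 8 of complex III, 17 of complex IV and 18 of complex V, the ATP synthase. The study used thymus from rats of the inbred Lewis strain at 8 weeks of age and made 1 droplet library of stromal cells and 1 of thymocytes, the developing T cells. For stroma, Liberase TH with DNase I released the cells, and those without CD45, the surface protein of blood-derived cells, were enriched on an autoMACS and then by flow sorting. For thymocytes, collagenase D with DNase I was used, with no CD45 selection named. Neither group carried a treatment or an engineered allele, and how many animals each library pooled is not given in the sources used here. Each group had 1 sample, so no test was run and no difference has a replicate check. The intervals in the text are at 95% and cover counting error alone.

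The respiratory chain sits in the inner membrane of the mitochondrion. Complexes I and II take electrons from NADH and succinate, complex III passes them to cytochrome c, and complex IV, cytochrome c oxidase, hands them to oxygen. Complex V uses the proton gradient that complexes I, III and IV build to make ATP. Most subunits are coded in the nucleus, a few are coded in mitochondrial DNA, and several complex IV subunits exist as isoforms that differ between tissues.

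Nuclear respiratory chain promoters are known for sites of NRF1, of ETS factors such as GABP, and of YY1, so these 3 motifs were looked for in RefSeq promoters of the GRCr8 build, which held 75 of the 84 members. Each window ran from 250 bases before to 50 bases after the start, and both strands were read. The NRF1 motif, GCGCA and GCGC with any base between them, was in 15 of 75 member windows (20%) and in 4.25% of all 33469 windows. The ETS motif CCGGAAG was in 21 (28%) against 8.75%, and the YY1 motif AANATGGCG was in 18 (24%) against 3.01%. At least 1 of the 3 was in 45 member windows (60%) and in 14.3% of all. The member windows had a median GC content of 56% and 20 CpG, against 51.7% and 7 over all windows. A match is a description of these letters, not of a bound site. The 250 bases before the start are shown for 6 members that the results return to, 5′ to 3′ in the sense of the gene, with motif matches in capitals. Cox7a2 (chr8:89601150-89601399, minus strand) and Uqcrq (chr10:38089979-38090228, minus strand) each hold 1 ETS match there, Cox8a (chr1:213833624-213833873, minus strand) holds 2, and Ndufa12 (chr7:30658066-30658315, plus strand) holds 1 NRF1 match. Cox8b (chr1:205408274-205408523, minus strand) and Cox6a2 (chr1:192219717-192219966, minus strand) hold none of the 3 motifs. The first 4 are members found in every label, and the last 2 are isoforms whose level varied widely between stromal labels.
Cox7a2: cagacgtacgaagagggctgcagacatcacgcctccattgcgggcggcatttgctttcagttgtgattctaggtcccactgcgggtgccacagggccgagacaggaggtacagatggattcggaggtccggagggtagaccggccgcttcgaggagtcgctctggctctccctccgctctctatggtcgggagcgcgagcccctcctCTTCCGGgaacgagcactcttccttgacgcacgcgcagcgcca
Uqcrq: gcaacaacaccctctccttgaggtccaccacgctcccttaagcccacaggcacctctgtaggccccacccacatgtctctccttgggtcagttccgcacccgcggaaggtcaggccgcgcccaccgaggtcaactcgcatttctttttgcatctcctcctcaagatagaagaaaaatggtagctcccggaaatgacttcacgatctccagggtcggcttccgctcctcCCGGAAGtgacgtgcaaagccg
Cox8a: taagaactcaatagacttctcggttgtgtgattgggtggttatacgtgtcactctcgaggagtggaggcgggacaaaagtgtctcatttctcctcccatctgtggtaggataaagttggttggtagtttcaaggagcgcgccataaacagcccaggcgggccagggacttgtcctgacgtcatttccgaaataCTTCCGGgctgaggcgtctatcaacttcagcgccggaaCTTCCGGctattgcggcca
Ndufa12: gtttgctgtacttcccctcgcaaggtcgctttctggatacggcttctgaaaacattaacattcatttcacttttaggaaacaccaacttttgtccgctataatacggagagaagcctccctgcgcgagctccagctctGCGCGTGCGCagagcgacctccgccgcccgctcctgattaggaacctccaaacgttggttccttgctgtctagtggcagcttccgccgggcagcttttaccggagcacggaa
Cox8b: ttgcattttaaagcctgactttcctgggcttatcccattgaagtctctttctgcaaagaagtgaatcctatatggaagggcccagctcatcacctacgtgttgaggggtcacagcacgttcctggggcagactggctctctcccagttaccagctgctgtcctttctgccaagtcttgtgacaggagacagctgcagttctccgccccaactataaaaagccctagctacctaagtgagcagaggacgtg
Cox6a2: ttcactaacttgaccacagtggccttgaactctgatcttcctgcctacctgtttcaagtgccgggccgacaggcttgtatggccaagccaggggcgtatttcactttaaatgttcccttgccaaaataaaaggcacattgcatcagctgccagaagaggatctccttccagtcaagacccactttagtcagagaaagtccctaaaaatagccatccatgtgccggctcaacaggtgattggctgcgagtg
Of the isoforms with a restricted pattern below, Cox6a2, Cox6b2, Cox8b and Cox7a1 had none of the 3 motifs in their whole window. The broadly detected Cox6b1, Atp5mc1, Cox5a and Ndufa4 had none either.

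Depth is given in unique molecular identifiers (UMIs), the tags by which distinct RNA molecules are counted. The 13226 annotated stromal cells held 131624350 of them, a median of 9087.5 for each cell. The thymocyte library had 8546 annotated cells, 64440495 UMIs and a median of 3994. The libraries shared 38 barcodes. Members made up 1946997 UMIs or 1.48% of the stromal library and 1593124 UMIs or 2.47% of the thymocyte library. In each, 83 of the 84 had at least 1 UMI. Cox8c was the exception, with 0 UMIs in both. Taking 3 UMIs as the limit, its level could reach 0.0228 CPM (UMIs per 1000000 UMIs) in the stromal and 0.0466 CPM in the thymocyte library. In RefSeq, 30 of the 84 genes overlap another gene, so their counts could share reads with a neighbour. Ndufs6 had at most 7.1 CPM in any label while the similarly named Ndufs6l1 had 88 to 305 CPM, and the level of Ndufs6 is uncertain.

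Cells are grouped by the authors' labels, whose abbreviations the files do not spell out. In thymus work DN, DP and SP usually stand for cells lacking, holding both, or holding 1 of the CD4 and CD8 coreceptors, and cTEC and mTEC for cortical and medullary epithelium. The labels were set against marker genes. The label DN held 702 CPM of Cd8a, 150 of Cd4 and 3.5 of Il2ra, so coreceptor transcripts were present in it. Mature SP pools the 4 mature CD4 and CD8 labels and held 355 CPM of Klf2 and 159 of S1pr1, a pair of genes of mature T cells. Cells labelled mTEC2 held 468 CPM of Aire, vSMC/PC held 1266 CPM of Acta2 and 998 of Myh11, and capEC held 999 CPM of Cdh5. Fibroblasts here pools the 5 labels capFb and TMC1 to TMC4, with 14620 CPM of Dcn. The label Myeloid held 49371 CPM of S100a8 and 4808 of Lyz2 but 17.1 of Csf1r.

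Epithelial labels matched their markers less closely. Of the cells labelled mimetic(goblet), 49 of 55 lay in the authors' cluster TEC-e, as did 30 of 35 labelled mimetic(muscle) and 36 of 44 labelled aaTEC1. These 3 labels had 462, 369 and 479 CPM of Foxi1, a transcription factor known from ionocytes, against 0.2 CPM in cTEC. The label names are therefore used only as names. The label cTEC held 207 CPM of Prss16 and 10.4 of Psmb11, both cortical genes, but it also held cells of a different kind. Of 13 annotated cells with at least 3 UMIs of Adipoq, a fat cell gene, 10 were labelled cTEC. A group of 9 of these in cluster TEC-a had 35620 CPM of Fabp4, 690 of Plin1 and no UMI of Epcam, Ccl25, Prss16 or Psmb11. The Adipoq limit was chosen after these values were seen. The summed share of cTEC and the ratio of mTEC1 to it are given with and without such cells. Other cTEC values include them unless stated.

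The first comparison asked how much of a thymocyte's RNA codes for the chain at each stage. The label DN stood highest with 3.29% of its UMIs (3.28 to 3.30, 390 cells), followed by DP-P with 3.01% (848 cells). The large label DP stood at 1.96% (1.95 to 1.97, 5202 cells), DP-sig at 2.00% and pooled mature SP at 1.74% (366 cells). Mature CD4-2 had the lowest share of the 21 labels of at least 20 cells, 1.61%, and Treg was next at 1.63%. The order was not a steady decline along the stages. Mature cycling T at 2.47% (33 cells), AgoSel2 at 2.32% and gdT at 2.29% (128 cells) all stood above DP. So did Mature CD8-2 at 2.30% (27 cells), 1 of the 4 labels pooled as mature SP. Of the others in that pool, Mature CD4-1 and Mature CD8-1 were both at 1.70%. Of 20 neighbouring pairs in this order, 11 had overlapping intervals. A share is relative to all other RNA of a label, so it also moves when other transcripts do.

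**Figure D1:**
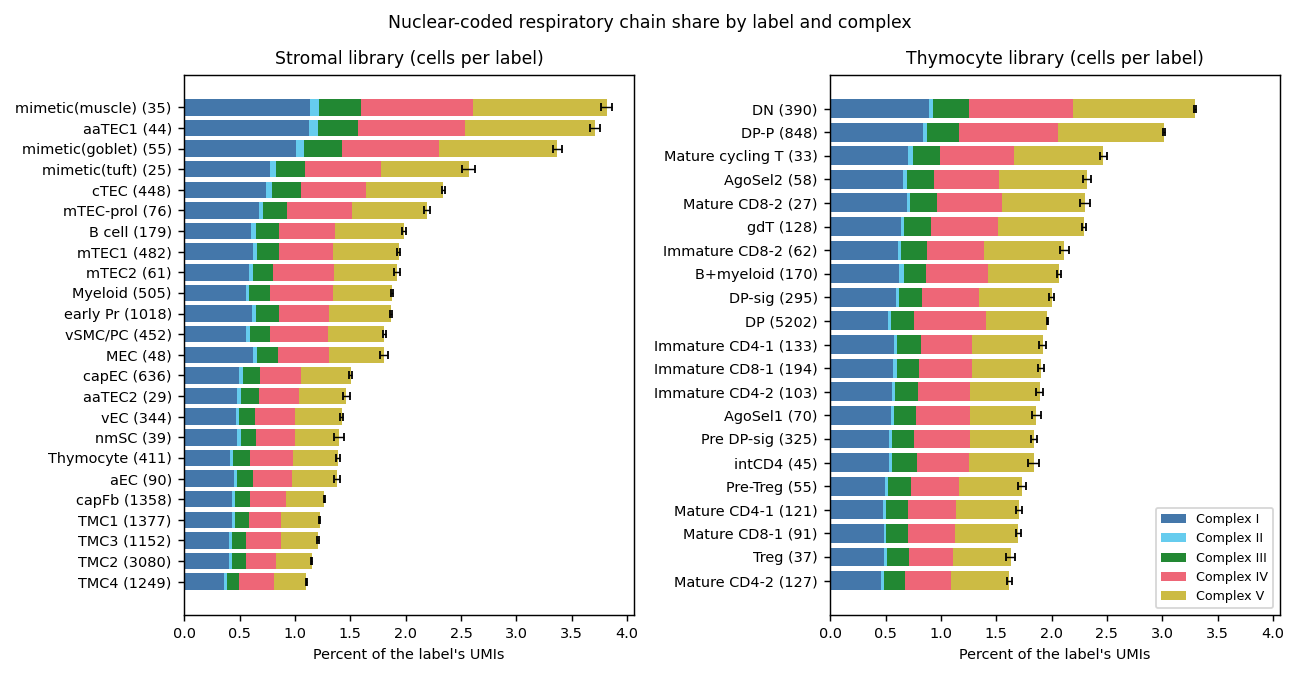
Nuclear-coded respiratory chain UMIs as a percent of all UMIs of a label (x axis), by label (y axis, with the number of cells), in the stromal and the thymocyte library. Coloured parts of a bar are the 5 complexes and black lines are 95% intervals of the sum for counting error; DN and DP-P lead among thymocytes, and the labels of cluster TEC-e lead among stromal cells.

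DN and DP-P were each compared with DP, and DP is shared by these 2 comparisons and by those of DP-sig and mature SP. The summed share of DN was 1.68 times that of DP (1.67 to 1.69). At least 1.5-fold higher were 54 of the 78 members with enough UMIs and lower were 0, where 26% of all 11286 features compared were higher and 40.3% were lower. The median member ratio was 1.86, against 0.825 over all features. DP-P over DP gave 1.54 (1.53 to 1.54), with 48 of 80 members at least 1.5-fold higher and 0 lower, against 22.1% and 38.4% of all features. Its median member ratio was 1.59, against 0.818.

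By complex, the ATP synthase differed most in DN, at 2.00 times the DP share, with 16 of 18 members past 1.5-fold. Complex I, the NADH dehydrogenase, was at 1.71 (22 of 36 members), complex III at 1.61 (6 of 8), complex IV at 1.43 (9 of 12) and complex II, succinate dehydrogenase, at 1.36 (1 of 4). DP-P gave the same order of complexes, with 1.73 for V, 1.60 for I, 1.42 for III, 1.37 for IV and 1.26 for II. Complex IV ranked low with its member Cox7a2 and not without it, when its ratio was 1.95 in DN and 1.78 in DP-P.

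Ndufa12, an accessory subunit of complex I, differed most among members. It had 51.7 CPM in DP (48.5 to 55.0), 263 in DN (254 to 273) and 283 in DP-P (275 to 291), which is 5.09 and 5.47 times DP. DP-sig (89.3 CPM) and mature SP (87.8 CPM) lay between these. Ndufa12 overlaps a second RefSeq gene, LOC134479957, so its reads may be shared. Atp5mc1, 1 of 3 genes that code for the same c-ring subunit of the ATP synthase, had 99.3 CPM in DP, 389 in DN and 268 in DP-P. Its ratio was 3.91 in DN and 2.69 in DP-P. Its share of the 3 genes' UMIs was 15.8% in DP, 25.3% in DN and 22.0% in DP-P, while Atp5mc2 took 57.3% in DP and 46.3% in DN. The mature c-ring protein is the same from all 3 genes, so this is a difference of source gene.

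Uqcrq, a small subunit of complex III, had 150 CPM in DP, 547 in DN (ratio 3.65) and 447 in DP-P (2.98). Ndufa11, a membrane subunit of complex I, had 117 CPM in DP and 357 in DP-P, a ratio of 3.05. Within complex III, Uqcrh, the hinge protein, went another way: it had 749 CPM in DP, 770 in DN, 706 in DP-P and 825 in mature SP, so it hardly differed where Uqcrq differed several-fold. At the low end in DN were Cox7a2 at 0.709, Ndufs4, an accessory subunit of complex I, at 0.829 (172 against 208 CPM) and Ndufv3 at 0.876 (113 against 129 CPM). In DP-P these were Ndufs4 at 0.782, Cox7a2 at 0.795 and Uqcrc2, a core protein of complex III, at 0.910 (138 against 151 CPM). None of them was past 1.5-fold.

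**Figure D2:**
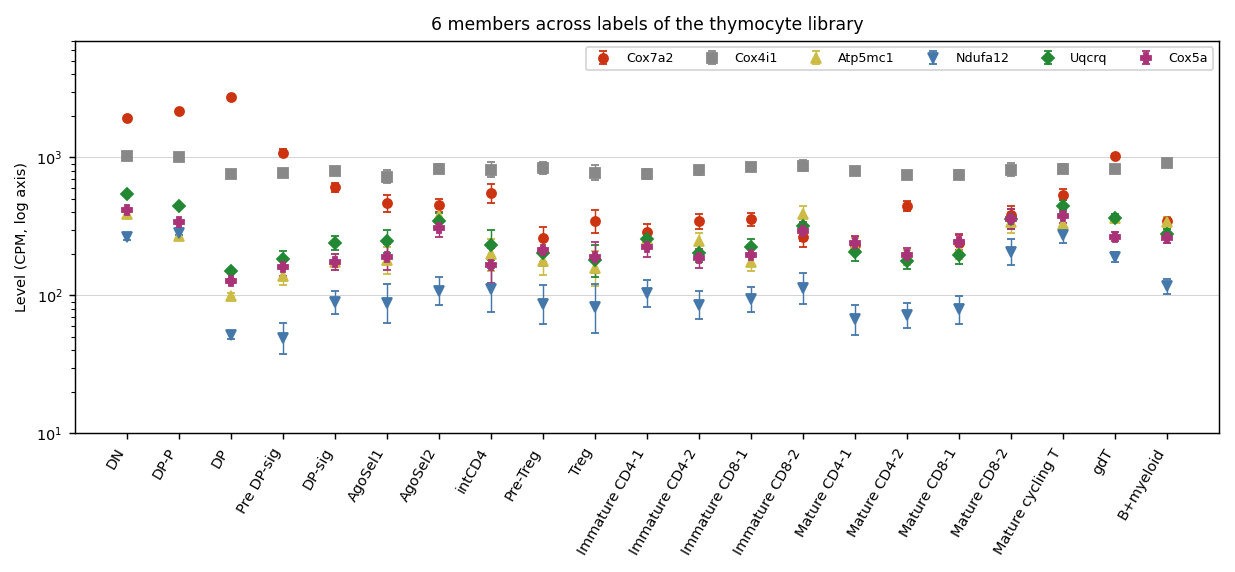
Level of 6 members (y axis, CPM, log axis) across the labels of the thymocyte library (x axis), with 95% intervals for counting error. Cox7a2 is highest in DP at 2740 CPM and low in mature labels, whereas Ndufa12, Atp5mc1 and Uqcrq are higher in DN and DP-P than in DP.

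Depth and cell division moved with these shares. Cells labelled DN had a median of 23190 UMIs and DP-P 15439, against 3205.5 in DP. The 6 proliferation genes summed to 1778 CPM in DN, 4134 in DP-P and 64.4 in DP. After each cell was thinned to 1000 UMIs, the DN ratio was 1.74 and the DP-P ratio 1.56, against 1.68 and 1.54 before. Thinning draws UMIs at random, so it leaves the expected share of a cell unchanged and only weights cells equally. It therefore cannot decide whether the shares differ with depth, and the part of depth was not tested. Within DN, thinned cells with a proliferation UMI had 3.38% and those without had 3.39%, and within DP-P these were 3.01% and 3.29%. Within DP they were 2.24% (267 cells) and 1.93%. At 1000 UMIs a dividing cell can lack a UMI of these 6 genes, so this split separates dividing from other cells only in part. The part of cell division in the shares was not tested. The DP share was 1.97%, 1.90%, 1.86% and 2.05% over 4 equal groups of cells from the fewest UMIs to the most. Without the member Cox7a2 these were 1.64%, 1.60%, 1.60% and 1.80%. The deepest DP group had a median of 5287 UMIs, so these groups do not reach the depth of DN or DP-P. Ribosomal protein genes took 26.4% of UMIs in DN, 21.6% in DP-P, 15.2% in DP and 27.99% in mature SP. Their part in the member shares was not tested beyond the totals without them: there DN stood at 1.87 and DP-P at 1.60 times DP. The authors' initial clusters divide these cells in another way: of the 390 cells labelled DN, 192 lay in cluster DN and 151 in cluster DP-P2, and 199 cells labelled DP-P lay in cluster DN. By cluster the order of DN and DP-P was not kept, with DP-P2 at 3.37% (156 cells), DP-P3 at 3.26%, DN at 3.08% (510 cells) and DP-P1 at 2.81%. All 4 stood above DP1 at 2.09% (3101 cells) and DP2 at 1.70% (2237 cells). Cluster DN over DP1 gave 1.47 and DP-P1 over DP1 gave 1.34.

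Cox7a2, a small subunit of complex IV in its widely expressed form, was the member with the most UMIs in thymocytes. It held 119376 UMIs or 7.49% of all member UMIs there, against 1.07% in the stromal library. Its level was 2740 CPM in DP (2717 to 2764), 2178 in DP-P, 1942 in DN, 1083 in Pre DP-sig and 1019 in gdT. It was 607 in DP-sig (565 to 651) and 549 in intCD4. The other 14 labels ranged from 231 CPM in Mature CD4-1 to 536 in Mature cycling T. The intervals of DP, DP-P and DN did not overlap, and all 3 lay far above the mature labels. By initial cluster the order of these 3 was not kept. DP-P2 (3345 CPM) and DP-P3 (3028) stood above DP1 (2755) and DP2 (2662), and DP-P1 (2506) and DN (1428) below.

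In mature SP, Cox7a2 had 325 CPM (307 to 344), a ratio of 0.119 to DP (0.112 to 0.126). Of 9193 features compared, 248 (2.70%) had a ratio as low or lower. In the stromal library, cells labelled Thymocyte had 804 CPM, B cell 327 and the 5 fibroblast labels 111 to 120. Within DN the level was lower in deeper cells, from 3697 CPM in the group with the fewest UMIs of 4 equal groups to 1341 in that with the most, and within DP from 3266 to 2525. Cox7a2 overlaps Tmem30a in RefSeq, which had 153 CPM in DP and 45.9 to 117 in the other thymocyte labels. The similarly named Cox7a2l2, which could share reads with it, had 136 CPM in DP, 103 in DN and 17.1 in mature SP. Cox7a2l, which is known to join complexes III and IV, had 729 CPM in DP and 479 in mature SP.

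The low share of mature SP as a pool rested on Cox7a2, but that of Mature CD4-2 did not rest on it alone. Without Cox7a2, Mature CD4-2 was at 1.57%, still below DP at 1.69%. Mature CD4-1 and Mature CD8-1 were then both at 1.68%, and Mature CD8-2 was at 2.26% (27 cells). Mature SP stood at 0.888 times DP (0.880 to 0.895) with all members, but at 1.01 without Cox7a2 and at 1.07 on totals without mitochondrially coded, ribosomal protein and haemoglobin genes. Of 77 members, 4 were at least 1.5-fold higher and 4 lower, against 14.6% and 35.1% of 9193 features. The median member ratio was 0.978, against 0.798 over all features. Higher were Atp5mc1 (223 against 99.3 CPM, 2.25), Cox5a (238 against 127 CPM, 1.87), Ndufa12 (1.70) and Ndufb2 (1.63). Lower beside Cox7a2 were, among others, Atp5f1c, the γ subunit of the ATP synthase (273 against 504 CPM, 0.542), and Ndufs4 (125 against 208 CPM, 0.599). Complex IV stood at 0.673 of DP with Cox7a2 and 1.07 without it. Complex V was at 1.04 and complex III at 0.999.

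DP-sig resembled DP in its sum, at 1.02 times DP (1.01 to 1.03), or 1.15 without Cox7a2. Of 76 members, 7 were at least 1.5-fold higher and 1 lower, where 13.9% of 6813 features were higher and 17.4% lower. Cox7a2 was the lower one, at 0.221. The higher ones were Atp5mc3 (312 against 169 CPM, 1.84), Atp5mc1 (174 CPM, 1.75), Ndufa12 (1.73), Ndufb6 (1.65), Atp5pf (1.62), Uqcrq (1.61) and Ndufc1 (1.51). At the low end, below 1.5-fold, were Sdhd at 0.671 (53.6 against 79.8 CPM) and Atp5f1c at 0.687 (346 against 504 CPM). Complex IV stood at 0.783 of DP with Cox7a2 and at 1.19 without it, and complex V stood at 1.19.

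The second question was how the stromal labels differ. The highest shares were those of the labels that lie in cluster TEC-e: mimetic(muscle) at 3.81% (3.76 to 3.87, 35 cells), aaTEC1 at 3.71% (44 cells) and mimetic(goblet) at 3.37% (55 cells). Next were mimetic(tuft) at 2.57% (25 cells) and cTEC at 2.34% (448 cells). The cTEC share includes the cells with Adipoq described above and was lower without them, as given below. Of the other epithelial labels, mTEC-prol stood at 2.19% (76 cells), mTEC1 at 1.94%, mTEC2 at 1.92%, early Pr at 1.87% and aaTEC2 at 1.46% (29 cells). Myeloid stood at 1.88%, vSMC/PC at 1.80% (452 cells) and capEC at 1.502%. The 5 fibroblast labels were at 1.10% to 1.27%, with TMC4 the lowest of the 24 labels. Of 23 neighbouring pairs, 8 had overlapping intervals, among them mTEC1 and mTEC2, and Myeloid and early Pr. Labels under 20 cells were left out.

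mimetic(goblet), the largest of the 3 TEC-e labels, was compared with mTEC1. Its share was 1.74 times that of mTEC1 (1.72 to 1.76). At least 1.5-fold higher were 58 of 79 members and lower were 3, where 15.8% of 6900 features were higher and 22.4% lower. The median member ratio was 1.70, against 0.966 over all features. All 5 complexes were higher, from 1.64 for complex I (26 of 36 members) to 1.85 for complex II (3 of 4). Cluster TEC-e as a whole (133 cells, 3.75%) stood at 1.89 times the other epithelial clusters, a comparison chosen after its share was seen. Those clusters were not alike. TEC-a stood at 3.23% (188 cells, with 9 of the cells with Adipoq among them), and TEC-b, TEC-c and TEC-d at 1.96%, 1.58% and 2.00%.

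The member furthest above mTEC1 was Uqcrb, a complex III subunit, with 767 CPM (710 to 828) against 256, a ratio of 2.997. Atp5f1b, the catalytic β subunit of the ATP synthase, had 1103 CPM against 426 (2.59), and 1221 in aaTEC1 and 1163 in mimetic(muscle). Cox6c, of complex IV, had 1239 CPM against 500 (2.48). Cox8a, whose promoter with 2 ETS matches is shown above, reached 1831 CPM (1741 to 1924) against 799 in mTEC1. The 3 lower members were the isoforms Cox4i2 (17.5 against 298 CPM, 0.059), Cox8b (16.3 against 41.0 CPM, 0.398) and Cox6a2. Cox6a2 had 0 UMIs in mimetic(goblet), which allows up to 3.50 CPM, against 51.0 CPM in mTEC1. The widely expressed partners Cox4i1 and Cox6a1 were both higher in mimetic(goblet), at 1.79 and 1.56 times mTEC1.

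**Figure D3:**
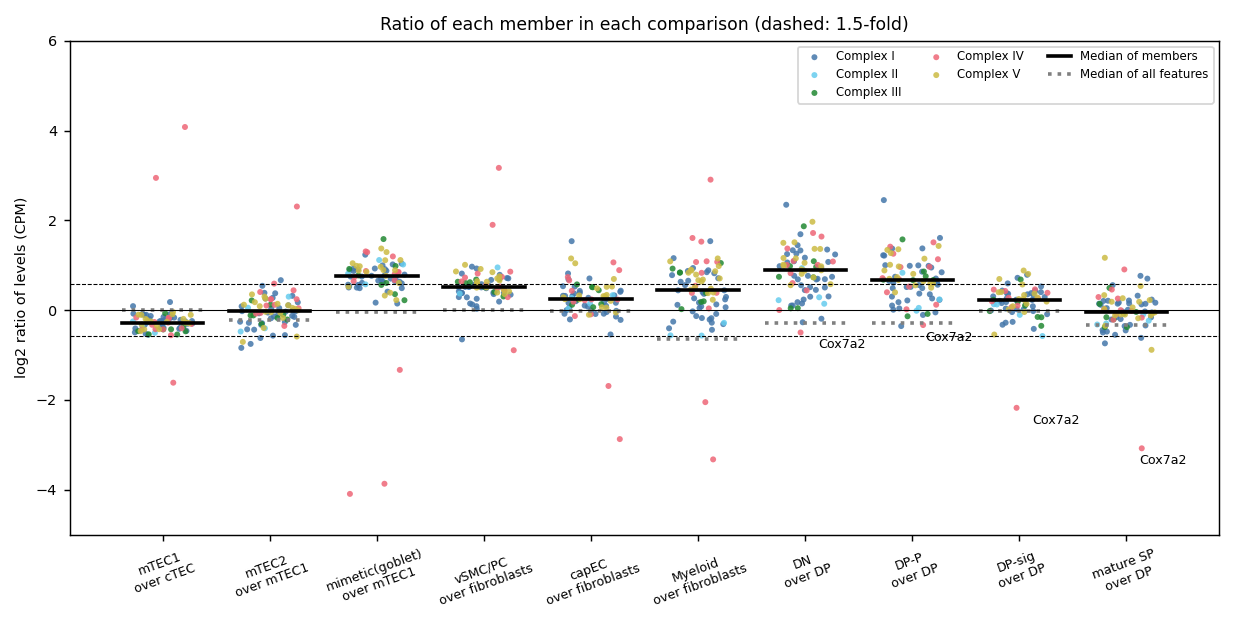
Ratio of the level of each member between 2 labels (y axis, log2 of the CPM ratio) in each of 10 comparisons (x axis); 1 point is 1 member, coloured by complex. The black line is the median of the members, the dotted grey line the median of all features compared, and dashed lines mark 1.5-fold; members lie above the grey line most clearly in DN, DP-P, mimetic(goblet) and Myeloid.

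mTEC1 was compared with cTEC and had 0.827 of its share (0.820 to 0.834). This gap depended on which cells carry the label cTEC. Without cells of at least 3 Adipoq UMIs, the cTEC share was 2.04% and the ratio 0.948. Within mTEC1, the 176 cells in cluster TEC-b had 2.04% and the 54 in TEC-c had 1.60%. Its 16 cells in TEC-a had 1.65% and its 232 in TEC-d had 1.95%. Within cTEC, the 311 cells in cluster TEC-b had 2.00%, the 55 in TEC-c had 1.69% and the 72 in TEC-a had 5.46%. Those 72 divide into the 9 cells with at least 3 Adipoq UMIs at 7.07% (4.61% to 12.9% per cell) and 63 others at 3.88% (3.81 to 3.95). The 63 others had 4657 CPM of Ccl25 and 77.6 of Psmb11, above the 271 and 7.06 CPM of the TEC-b cells, and a median of 3618 UMIs against 10757.

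Of 81 members, 2 were at least 1.5-fold higher in mTEC1 and 1 lower, where 14.8% of 12102 features were higher and 11% lower. The 2 higher ones were Cox4i2 (298 CPM, 285 to 312, against 17.6) and Cox6a2 (51.0 against 6.6 CPM), at 16.9 and 7.71. The lower one was Cox8b (41.0 against 126 CPM, 0.326). So the members past 1.5-fold were isoforms of complex IV subunits. Smaller differences were wider, as only 4 of the 81 members had a ratio above 1. The next furthest were Ndufb4 at 1.13 on the high side and Cox8a at 0.679 and Ndufa9 at 0.684 on the low side. The median member ratio was 0.826, against 1.01 over all features. These counts and ratios were taken with all cells labelled cTEC, those with Adipoq among them. mTEC1 was not uniform either, and the 3 isoforms differed by cluster within it. Its cells in cluster TEC-d had 478 CPM of Cox4i2, 87.0 of Cox6a2 and 9.45 of Cox8b. Those in TEC-b had 29.8, 2.17 and 101 CPM, against 15.3, 0.588 and 133 CPM in the cTEC cells of TEC-b. Within TEC-b the 2 labels thus lay closer in Cox4i2 and Cox8b than the ratios of the whole labels. The summed share of mTEC1 rose with depth, at 1.39%, 1.77%, 1.93% and 2.11% over 4 equal groups from the fewest UMIs to the most. In cTEC these were 2.49%, 1.87%, 2.20% and 2.61%.

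mTEC2, the label with Aire, matched mTEC1 in its sum (ratio 0.993, 0.977 to 1.01, 61 cells). Of 79 members, 3 were at least 1.5-fold higher and 5 lower, where 13.5% of 7022 features were higher and 28.7% lower. Higher were Cox6a2 (252 CPM, 220 to 288, against 51.0, ratio 4.95), Ndufs1, the largest complex I subunit (45.7 against 28.8 CPM, 1.59), and Cox5a (263 against 174 CPM, 1.51). Lower were Ndufb11 (119 against 213 CPM, 0.559), Ndufa11 (224 against 377 CPM, 0.594), Atp5po (218 against 356 CPM, 0.613), Ndufc1 (0.65) and Atp5mc2 (0.67). Complex IV stood at 1.11 of mTEC1 and the other complexes at 0.916 to 0.969.

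The label vSMC/PC, with contractile genes, was compared with pooled fibroblasts. Its share was 1.52 times theirs (1.51 to 1.53). At least 1.5-fold higher were 31 of 79 members and lower were 2, where 12.4% of 10703 features were higher and 17.5% lower. The median member ratio was 1.44, against 0.997. Complex IV differed most, at 1.75, then V at 1.54, II at 1.498, III at 1.44 and I at 1.36. The member furthest apart was Cox4i2, an isoform of subunit 4 known from lung and from cells at low oxygen, with 671 CPM (644 to 699) against 74.6, a ratio of 8.99. Cox6b2 had 61.4 against 16.4 CPM (3.73) and Atp5f1b had 477 against 237 CPM (2.01).

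Ndufa4, a subunit first placed in complex I and since found in complex IV, was lower in vSMC/PC, with 179 CPM (165 to 194) against 282, a ratio of 0.637. Its relative Ndufa4l2, which is not a member by name but stood on the list of assembly factors and carriers, was higher in vSMC/PC. It had 382 CPM (361 to 403) against 18.1, and at most 61.4 CPM in any other stromal label. Cox7a1 was the other lower member, at 5.0 against 9.4 CPM (0.539). Ndufa3 was near equal, at 55.4 against 54.3 CPM. In vSMC/PC, therefore, most members were modestly higher while 1 subunit pair, Ndufa4 and Ndufa4l2, went in opposite directions.

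capEC, the largest endothelial label, stood at 1.26 times fibroblasts (1.25 to 1.27). Of 79 members, 11 were at least 1.5-fold higher and 2 lower, where 18.3% of 11362 features were higher and 26.1% lower, so the share of members higher was below the background. The median member ratio was 1.19, against 0.982. Furthest above was Ndufa8, a complex I subunit, at 236 CPM (222 to 251) against 81.4 (2.90), and it was 231 in vEC and 154 in aEC. Atp5pf had 504 against 227 CPM (2.22) and Cox5a 170 against 81.5 CPM (2.09). The 2 lower ones were Cox6b2 (2.2 against 16.4 CPM, 0.137) and Cox4i2 (23.2 against 74.6 CPM, 0.310). Ndufa2 was next at 0.687 (78.4 against 114 CPM).

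Myeloid stood at 1.58 times fibroblasts (1.57 to 1.59). Of 79 members, 34 were at least 1.5-fold higher and 2 lower, where 16.3% of 12031 features were higher and 51.5% lower, and the median member ratio was 1.37 against 0.644. The complexes did not move together: complex IV was at 1.92, V at 1.61, III at 1.55 and I at 1.37, while complex II was at 0.866. Sdha, the flavoprotein of complex II, had 38.8 against 57.4 CPM (0.676). Cox5a, a complex IV subunit, had 611 CPM (591 to 631) against 81.5, a ratio of 7.50, and was 229 in B cell. Cox7b had 481 against 158 CPM (3.05) and Ndufb1 263 against 90.7 CPM (2.90). Lower were Cox4i2 (7.5 against 74.6 CPM, 0.100) and Cox6b2 (4.0 against 16.4 CPM, 0.242).

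Myeloid cells differed among themselves, with shares per cell of 0.74%, 1.08% and 2.10% at the lower quartile, median and upper quartile. The 86 cells without a UMI of the 10 thymocyte marker genes had 1.42% and 466 CPM of Cox5a, and the 419 others had 1.91% and 623 CPM. The 86 cells were also shallower, with a median of 3826.5 UMIs against 10605, and had 1786 CPM of Lyz2 against 5060. The ratio to fibroblasts was 1.198 among cells without such a UMI and 1.29 after thinning. Proliferation genes were at 720 CPM against 37.8 in fibroblasts. Thinned Myeloid cells with a proliferation UMI had 1.31% and those without had 1.62%, a split with the same limit as in DN. The part of thymocyte RNA in the sum was not tested further.

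Isoforms of complex IV subunits gave the sharpest patterns among stromal labels. Labels of at least 50 cells were taken, with features of at least 100 UMIs over them. Of 16011 such features, 41.1% had a highest label at least 3-fold above the median label, and of 82 such members 12 did. These were Cox4i2 and Cox6b2 (vSMC/PC), Cox6a2 (mTEC2), Cox8b (cTEC), Cox5a (Myeloid), Cox7a2 (Thymocyte) and 6 led by mimetic(goblet): Cox8a, Atp5f1e (1336 CPM), Atp5f1b, Uqcrb, Sdhd (220 CPM) and Atp5po (695 CPM). The share of members with such a label was thus smaller than that of all features. In the thymocyte library 3 of 79 members had such a label, Cox7a2, Ndufa12 and Cox6b2 (16.5 CPM in gdT), where 24.4% of 12131 features did.

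Cox4i2 made up 42.3% of the subunit 4 UMIs (Cox4i1 and Cox4i2) in vSMC/PC, 41.8% in mTEC-prol, 37.9% in TMC4, 32.8% in mTEC2 and 28.3% in mTEC1. It made up 1.71% in cTEC, 0.53% in capFb and at most 0.40% in any thymocyte label. The fibroblast labels thus ranged from 4.1 CPM of Cox4i2 in capFb to 350 CPM in TMC4 (340 to 361). After thinning to 1000 UMIs, 42.7% of vSMC/PC cells held a Cox4i2 UMI against 0.4% of capFb cells, a label that serves as the background here (84.7% and 4.1% unthinned, at median depths of 6446 and 11378.5 UMIs).

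Cox6a2, the heart and skeletal muscle form of subunit 6a, made up 34.4% of its pair in mTEC2, 22.3% in mTEC-prol, 9.13% in mTEC1 and 8.79% in mimetic(muscle). Its levels in order were those of mTEC2 (252 CPM), mTEC-prol (166, 145 to 189), mimetic(muscle) (80.6, 58.1 to 109) and mTEC1 (51.0, 45.6 to 56.8). The intervals of these 4 did not overlap, but they cover counting error alone. The labels were not uniform in it. Of the 35 mimetic(muscle) cells, the 30 in cluster TEC-e had 13.9 CPM, so the level and place of that label rested mostly on its few other cells. mTEC1 cells had 87.0 CPM in cluster TEC-d and 2.17 in TEC-b. mimetic(tuft) had 42.7 CPM and cTEC 6.6. Cox8b, also a muscle form, followed another pattern: it made up 11.1% of the subunit 8 UMIs in early Pr, 9.66% in cTEC and 4.89% in mTEC1, and 0.17% in fibroblasts. Early Pr (118 CPM, 112 to 124) and cTEC (126 CPM, 116 to 136) had overlapping intervals. In cTEC, Cox8b was at 341 CPM in the 63 TEC-a cells under 3 Adipoq UMIs and at 0 in the 9 others.

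Cox6b2, known from testis, was highest in the small label MEC at 207 CPM (170 to 250, 109 UMIs, 48 cells), where it made up 29.2% of its pair. It made up 12.3% in TMC4, 12.2% in vSMC/PC and 0.32% in capFb. Cox7a1, the heart and muscle partner of Cox7a2, was low throughout, at 3.4 to 10.5 CPM over stromal labels of at least 50 cells, and made up 7.53% of its pair in fibroblasts and 0.23% in DP. In the small label nmSC (39 cells) it had 38.8 CPM (19.4 to 69.4) on 11 UMIs and made up 22.0% of its pair (11.5 to 36.0). The muscle isoforms Cox6a2, Cox8b and Cox7a1 therefore did not share a pattern.

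**Figure D4:**
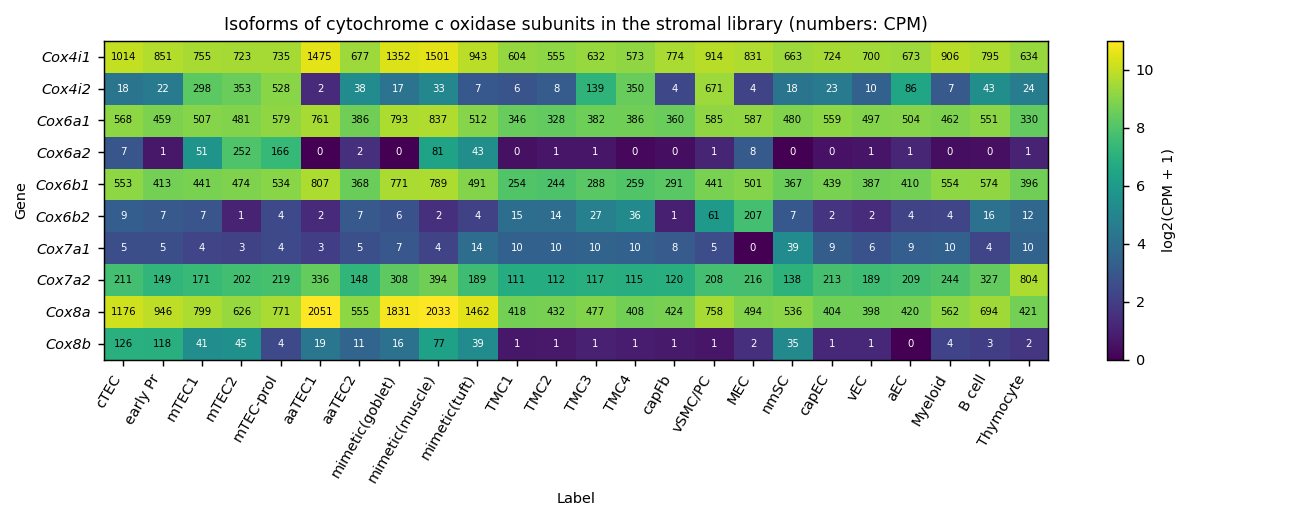
Level of the isoforms of cytochrome c oxidase subunits (rows) in the stromal labels (columns); colour is log2(CPM + 1) and the numbers are CPM. Cox4i2 is high in vSMC/PC, TMC4 and the mTEC labels, Cox6a2 in mTEC2 and mTEC-prol, and Cox8b in cTEC and early Pr.

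Nuclear-coded members were set beside the 13 mitochondrially coded subunits. In DN the nuclear share was 1.29 times the mitochondrially coded one, in DP-P 1.07, in DP 0.606 and in mature SP 0.482. The mitochondrially coded share ran the other way, from 2.55% in DN and 2.83% in DP-P to 3.24% in DP and 3.61% in mature SP. Over the 17 thymocyte labels of at least 50 cells where both were counted, Spearman's rho between these shares was -0.718, and over 18 stromal labels it was 0.554. All labels of a library share its preparation and its totals, so these values only describe the libraries. In DN, none of the 13 mitochondrially coded genes was at least 1.5-fold above DP and 1 was below it. These genes ranged from ND6 at 0.44, the one below, and COX3 at 0.68 to ND4L at 1.31. Among stromal labels the ratio of nuclear to mitochondrially coded UMIs ran from 0.279 in TMC4 to 0.779 in mimetic(muscle), and mimetic(tuft) had the largest mitochondrially coded share, 7.06%.

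**Figure D5:**
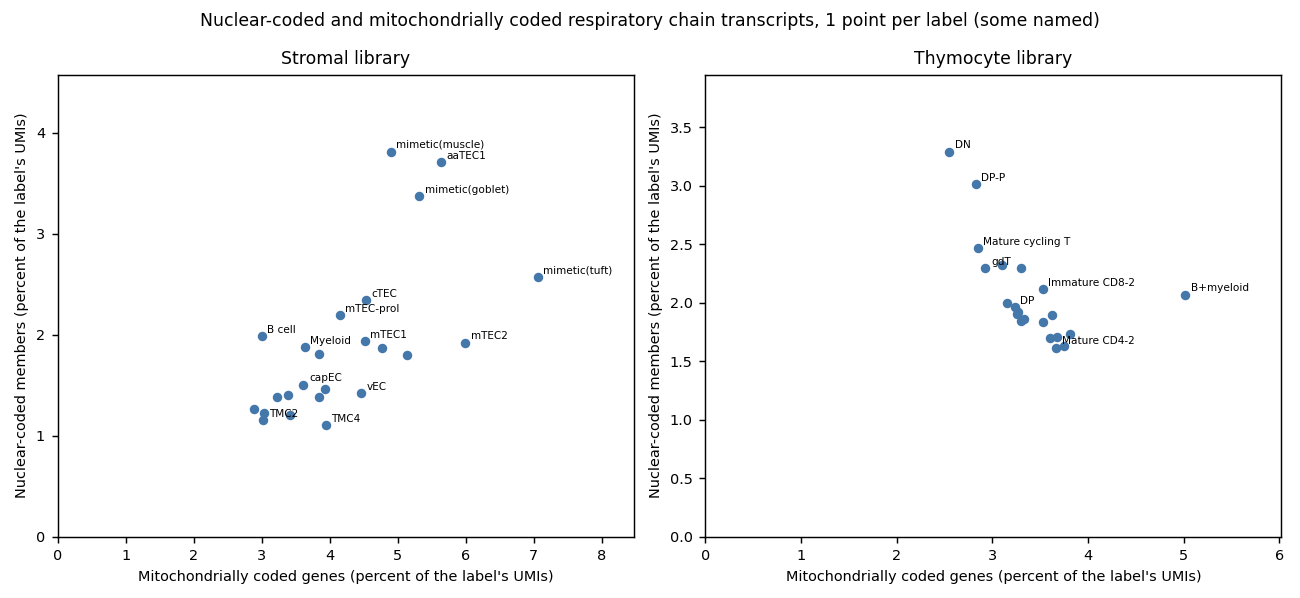
Share of nuclear-coded members (y axis, percent of the label's UMIs) against that of the 13 mitochondrially coded genes (x axis, percent), 1 point per label, in each library. Among thymocytes DN and DP-P lie high and to the left, and Mature CD4-1, Mature CD4-2 and Mature CD8-1 low and to the right.

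The complexes moved together across labels. Over 18 stromal labels, Spearman's rho between the shares of 2 complexes was 0.70 to 0.98, and over 17 thymocyte labels 0.63 to 0.97. Each member was also set against the sum of the others: the median rho was 0.813 over 82 members in the stromal and 0.713 over 79 in the thymocyte library. Atp5pd (0.98, stromal) and Atp5po (0.95, thymocyte) followed the sum most closely. Against it went Cox7a1 (-0.71) and Cox6b2 (-0.24) in stromal cells and Uqcrh (-0.45) in thymocytes. The sum itself had a rho with the proliferation genes of 0.740 in stromal and 0.838 in thymocyte labels, and with median depth of 0.631 and 0.444.

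Other genes of energy metabolism were counted from lists. Their counts are read against the share of all features given above for each comparison, which in DN was 26% higher and 40.3% lower. Of 16 glycolysis genes, 12 were at least 1.5-fold higher in DN than in DP and 0 lower, with a median ratio of 3.54, above that of the members. Examples are Ldhb (7.83), Tpi1 (6.87), Gapdh (6.76) and Pkm (4.78). Of 13 citrate cycle genes, 5 were higher and 1 lower, with a median of 1.10. Of 32 assembly factors and carriers 14 were higher and 2 lower, among them Uqcc2 (3.56), Cycs (3.52), which is cytochrome c, and Ndufab1 (3.33). Of 8 regulators 3 were higher: Pprc1 (6.98), Myc (6.84) and Tfam (2.16), the packaging factor of mitochondrial DNA. Nrf1 (0.63) and Esrra (0.52) were the 2 lower ones.

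In DP-P, 12 of 16 glycolysis genes were higher and 1 lower, Pfkm (0.55), and 9 of 32 assembly genes were higher, near the 22.1% of all features, and 3 lower, against 38.4%. In DP-sig, 9 of 12 glycolysis genes were higher and 1 lower, and in mature SP 8 of 15 were higher and 1 lower. More glycolysis genes were higher than lower in each of these 4 labels, of which DN and DP-P alone had a member median above 1.5. In mimetic(goblet) the weight lay elsewhere: 13 of 20 assembly genes were higher than in mTEC1 and 1 lower (median 1.58), as were 7 of 13 citrate cycle genes, 1 lower (median 1.52), and 4 of 11 glycolysis genes. In vSMC/PC 8 of 32 assembly and 8 of 14 glycolysis genes were higher and 0 lower in both, and in Myeloid 10 of 15 glycolysis genes were higher and 3 lower (median 3.57).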

How the data were processed

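UMI counts per gene and barcode were deposited by the authors as whole numbers, with Cell Ranger 8.0.0 named per the file headers, and the submitters' processing notes also name Seurat 5.3.0 and the build mRatBN7.2. The strand setting and whether 3′ or 5′ ends were read are not given in the sources used here. The percent of mitochondrial UMIs that the authors deposited per cell matches the 2 mitochondrial rRNA genes and not the 13 mRNAs used here. The spatial section is not analysed here.

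Cells took the authors' projected label, or their initial cluster where none was given. UMIs were summed per label of at least 20 cells, as shares with exact Clopper-Pearson, levels (CPM) with exact Poisson and ratios with exact conditional binomial intervals, all at 95%. A feature entered a comparison where its pooled rate gave at least 20 expected UMIs in the smaller label, and 1.5-fold was the limit for higher or lower. Values under 3 UMIs were set to 3 in ratios. Annotated stromal cells were all under 5% in the deposited percent, and cells of the thymocyte library reached 54.2%. Doublets were neither called nor taken out.

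The text names, per comparison, the 3 highest and 3 lowest members, the members with 1 label of at least 50 cells at least 3-fold above the median label on at least 20 UMIs, the 2 members per complex with the most UMIs, the tissue isoforms and Ndufa4, and others where a count is spelled out. The values of 1 gene are not reported here. By complex the 2 with the most UMIs over both libraries were Ndufa4 and Ndufa13, Sdhb and Sdhd, Uqcrh and Uqcr10, Cox4i1 and Cox7a2, and Atp5f1e and Atp5mg. The members and lists were chosen with earlier results of these data known.

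The ratio rule was tested on simulated counts of DP-sig over DP with 6824 features past the filter: 100 of 100 doubled, 95 of 100 halved (1 of which fell below the filter) and 91 of 6625 unchanged features were called. Alternatives changed the cells, depth, totals, weighting, labels, members, fold limit and filter. Work used pandas 2.3.3, NumPy 2.4.6, matplotlib 3.10.9 and SciPy 1.17.1 in Python 3.11.15, with seed 7.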

Additional observations from a re-analysis of the deposited data

Results flagged for a closer look

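Barcodes that the authors left without an annotation entered no comparison, and both sets held more mitochondrially coded RNA than annotated cells. In the stromal library the 13 mitochondrially coded genes made up 20.8% of the UMIs of 2934 such barcodes (median 1219.5 UMIs), against 3.62% in annotated cells. The nuclear-coded members made up 1.24% there, against 1.48%. In the thymocyte library the mitochondrially coded share was 45.5% in 28 such barcodes (median 764.5 UMIs), against 3.10%, and the members were at 0.0943%, against 2.47%.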

How the results depend on the processing

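No paired analysis was possible because the 2 libraries stand for 1 sample per group. Of the ratios of summed shares, 41 values under an alternative moved by less than their interval, 40 moved further and 5 changed direction, and of the member counts 68 stayed within 1.5 times and 32 did not. Of the summed shares of single labels, 158 values under an alternative were classed as the same and 181 as moved. Of the shares by complex, 90 were classed as moved. The order of labels had a Spearman's rho with the reported one of 0.959 to 1 in stromal cells and of 0.708 to 1 in thymocytes. The value of 0.708 was that on totals without mitochondrially coded, ribosomal protein and haemoglobin genes. The ratio of mTEC2 to mTEC1 by initial cluster was not run, since TEC-d, which holds 57 of the 61 mTEC2 cells, is also the cluster with the most mTEC1 cells (232 of 482).

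Direction changed for mature SP over DP without Cox7a2 (1.013), thinned and without Cox7a2 (1.028) and on totals without mitochondrially coded, ribosomal protein and haemoglobin genes (1.066). By initial cluster, each label was replaced by the cluster with most of its cells, which is not the same group of cells. The value for DP-sig over DP was then 0.9206, which is cluster Early SP (284 of 874 cells labelled DP-sig) over DP1, and that for mTEC1 over cTEC was 1.019, which is TEC-d over TEC-b (878 of 1388 cells labelled early Pr and 311 cTEC). Thinning each cell to 1000 UMIs gave 1.742 for DN, 1.555 for DP-P, 0.7855 for mTEC1 over cTEC, 1.867 for mimetic(goblet), 1.586 for vSMC/PC, 1.3 for capEC and 1.293 for Myeloid. The mean of the cells' shares gave 1.743, 1.56, 0.7931, 1.837, 1.583, 1.302 and 1.269 for the same comparisons, and 0.8985 for mature SP. The reduced totals gave 1.867 for DN, 1.602 for DP-P, 0.803 for mTEC1 over cTEC, 1.681 for mimetic(goblet), 1.544 for vSMC/PC and 1.625 for Myeloid. Without Cox7a2, DN was at 1.838, DP-P at 1.657 and DP-sig at 1.15, and with thinning as well at 1.883, 1.665 and 1.153. By initial cluster, cluster DN over DP1 was at 1.474, DP-P1 over DP1 at 1.344, TEC-e over TEC-d (for mimetic(goblet)) at 1.876 and Endo-1 over fibroblasts (for capEC) at 1.234. Cells with no thymocyte marker UMI gave 0.7955 for mTEC1 over cTEC, 1.535 for vSMC/PC, 1.245 for capEC and 1.198 for Myeloid. Cells below the 99th percentile of UMIs gave 0.9069 for mTEC1 over cTEC, 0.9648 for mTEC2 over mTEC1 and 1.532 for Myeloid. Chosen after seeing the data were cells with under 3 Adipoq UMIs (0.9483 for mTEC1 over cTEC), cluster TEC-e over the other epithelial clusters (1.891) and the thinning without Cox7a2. Where no reason is given above, the cause was not tested.

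Counts of members depend on the fold limit. At 2-fold, members higher were 31 in DN, 18 in DP-P, 0 in DP-sig, 1 in mature SP, 14 in mimetic(goblet), 1 in mTEC2, 3 in vSMC/PC, 4 in capEC and 11 in Myeloid, and members lower were 1 in mature SP, 0 in mTEC2 and 0 in vSMC/PC. Members with 1 label at least 2-fold above the median label numbered 41 in stromal and 15 in thymocyte cells. At 1.25-fold, members higher were 25 in DP-sig, 10 in mature SP, 9 in mTEC2, 67 in vSMC/PC and 30 in capEC. Members lower were then 1 in DN, 2 in DP-P, 6 in DP-sig, 15 in mature SP, 31 in mTEC1 over cTEC, 15 in mTEC2 and 6 in Myeloid. A limit of 5 expected UMIs, and no filter beyond 1 UMI, each gave 2 lower in DN and 2 lower in DP-sig. The reduced totals gave 10 higher and 2 lower in mature SP, 2 lower in DP-sig and 3 lower in mTEC1 over cTEC. With 1 sample per group, depth limits only the counting error, and labels of few cells, such as mimetic(tuft) with 25, rest on those cells.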

Other observations

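Single cells with the largest member shares were few. Of annotated stromal cells with at least 1000 UMIs, 10 had more than 6% of their UMIs in the members, and 7 of these were labelled cTEC and held at least 3 Adipoq UMIs. The 9 such cells of cluster TEC-a had 8928 CPM of Car3 beside the fat cell genes and a median of 35681 UMIs. The authors' initial clusters divide the DP label's main range further, with 2.09% of UMIs in members in cluster DP1 (3101 cells) and 1.70% in DP2 (2237 cells). The 3 clusters DP-P1, DP-P2 and DP-P3 stood at 2.81%, 3.37% and 3.26%, and Cox7a2 was at 2506, 3345 and 3028 CPM in them.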
